A study of Homo sapiens with 6 samples.

Results

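Tumour cells carry surface ligands that hold T cells, natural killer (NK) cells and phagocytes in check, or that alert them. The 10 genes CD274, PDCD1LG2, CD276, VTCN1, PVR, NECTIN2, CD47, LGALS9, ULBP2 and MICA were taken by name from the 51537 genes of the deposited table, where NECTIN2 stands under its older name PVRL2; all 10 were found. They were described in 3 libraries of crizotinib-resistant H3122 cells and 3 libraries of control H3122 cells. H3122 comes from a human adenocarcinoma of the lung and is known to carry an EML4-ALK fusion. That fusion makes an active kinase that crizotinib, an inhibitor of ALK and MET, blocks. In these libraries ALK was under 1 TPM, averaging 0.237 TPM in resistant and 0.250 TPM in control libraries, and the fusion was not examined. The resistant cells had been raised in crizotinib stepped up from 0.1 to 10 µM, and the control cells are labelled as H3122 control. The labels do not say whether the resistant line is a clone or a pool, whether drug was present at harvest, or whether the replicates were separate cultures, so the p-values reflect library-to-library spread alone, possibly of technical origin.

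CD274 encodes PD-L1 and PDCD1LG2 encodes PD-L2, the ligands of the PD-1 receptor that damps T cell signalling. CD276 (B7-H3) and VTCN1 (B7-H4) are their relatives in the B7 family, which restrain T cells through receptors that are less settled. CD47 binds SIRPα on macrophages and holds back phagocytosis. PVR (CD155) and NECTIN2 (CD112) are bound by the inhibitory receptor TIGIT and the activating receptor CD226, and the galectin encoded by LGALS9 binds TIM-3. ULBP2 and MICA differ from the other 8 in kind: they are stress-induced ligands of NKG2D, a receptor that activates NK cells, so the name checkpoint ligand covers them only loosely. In epithelial cells PD-L1 is classically induced by interferon through JAK kinases and IRF1.

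A few promoters are shown because the text returns to them: that of CD274 and that of LGALS9 hold the letters of an interferon response motif, ULBP2 and MICA are NKG2D ligand genes called higher in resistant cells, and MICB is the closest relative of MICA. Each is the RefSeq window on GRCh38.p14, from 250 bases before to 50 bases after the gene's start, 5′ to 3′ on the gene's strand (the plus strand for all of them). Capitals mark matches to the searched motifs.
CD274, chr9:5450292-5450591: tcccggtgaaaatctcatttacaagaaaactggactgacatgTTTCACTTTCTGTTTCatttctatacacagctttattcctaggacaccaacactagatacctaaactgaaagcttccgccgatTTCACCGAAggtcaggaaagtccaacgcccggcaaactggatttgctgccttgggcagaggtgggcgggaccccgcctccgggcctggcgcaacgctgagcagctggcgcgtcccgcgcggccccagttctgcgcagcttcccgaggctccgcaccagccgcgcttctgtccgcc
LGALS9, chr17:27630938-27631237: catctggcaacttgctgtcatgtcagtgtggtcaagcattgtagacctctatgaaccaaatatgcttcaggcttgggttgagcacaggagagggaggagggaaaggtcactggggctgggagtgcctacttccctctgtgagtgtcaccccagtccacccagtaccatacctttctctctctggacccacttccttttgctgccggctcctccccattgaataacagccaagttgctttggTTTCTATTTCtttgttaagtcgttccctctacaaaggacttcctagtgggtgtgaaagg
ULBP2, chr6:149941764-149942063: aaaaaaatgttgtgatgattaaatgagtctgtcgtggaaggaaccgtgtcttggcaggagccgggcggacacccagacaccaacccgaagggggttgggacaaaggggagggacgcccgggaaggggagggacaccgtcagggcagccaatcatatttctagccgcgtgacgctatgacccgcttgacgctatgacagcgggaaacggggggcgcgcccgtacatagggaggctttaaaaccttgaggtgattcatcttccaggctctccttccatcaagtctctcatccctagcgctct
MICA, chr6:31403345-31403644: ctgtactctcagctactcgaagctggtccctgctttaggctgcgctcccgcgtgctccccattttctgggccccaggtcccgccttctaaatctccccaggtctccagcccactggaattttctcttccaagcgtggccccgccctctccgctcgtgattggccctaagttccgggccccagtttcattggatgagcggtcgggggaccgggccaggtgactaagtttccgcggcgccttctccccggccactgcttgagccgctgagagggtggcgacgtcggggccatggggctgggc
MICB, chr6:31497895-31498194: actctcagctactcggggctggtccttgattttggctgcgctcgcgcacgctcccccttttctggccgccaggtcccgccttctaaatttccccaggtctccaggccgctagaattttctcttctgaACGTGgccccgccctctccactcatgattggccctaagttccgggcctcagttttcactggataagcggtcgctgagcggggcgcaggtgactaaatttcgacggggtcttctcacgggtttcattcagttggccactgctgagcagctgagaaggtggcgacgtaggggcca
The motifs searched on both strands were GAAA, any 2 bases and GAAA again (interferon response, found in 3.57% of 35116 RefSeq promoters), TTCNNNGAA (STAT, 7.66%), GGG, any 2 bases and TTTCC (NF-kB, 1.91%) and ACGTG (hypoxia response core, 21.4%). In the CD274 window the interferon motif was found at 2 overlapping positions, as tttcactttc and tttctgtttc, and the STAT motif at 1. The LGALS9 window held the interferon motif once, as tttctatttc. The MICB window held ACGTG and the MICA window did not, and the aligned windows of these relatives were 77.8% identical. None of the motifs was found in the windows of ULBP2, PVR, NECTIN2 and VTCN1. A match is a description of letters and says nothing of binding in these cells.

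The libraries were of similar depth. Levels are TPM, reads per gene length scaled to 1000000 in a library, and the table keeps no read totals; totals rebuilt from gene lengths were an estimated 29856927 to 36695580 reads. The epithelial markers were strongly expressed (8 of 8 tested), while 3 of 4 lung adenocarcinoma lineage markers, NKX2-1 among them, were under 1 TPM in all 6 libraries. Of 22 leukocyte markers, 18 were under 1 TPM throughout and LYZ, CD2, MS4A1 and TYROBP were at 0; their summed level was 12.7 to 14.5 TPM in resistant and 10.3 to 11.0 TPM in control libraries. Of 10 fibroblast markers, 9 were under 1 TPM throughout (sum 14.4 to 15.8 TPM in resistant and 4.40 to 4.99 TPM in control libraries, mostly COL1A1), and of 8 endothelial markers, 5 were (13.2 to 15.4 TPM and 11.2 to 12.5 TPM). The part of these markers in the results was not tested.

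Of the 10 genes, 8 had at least 1 TPM in all 6 libraries and were tested, while CD274 and PDCD1LG2 lay below the filter. Among the 8, ULBP2, CD47, MICA and PVR rose in resistant cells, VTCN1 fell, and NECTIN2, CD276 and LGALS9 did not pass the test. These calls come from limma fitted to log2(TPM + 1) of 16077 genes with Benjamini-Hochberg adjustment at 0.05, which is also the source of every adjusted p below unless another setting is named. Changes were widespread in these cells: 24.0% of all genes tested were called higher and 24.7% lower, together 48.6%, so 5 calls among 8 genes are not far from the background. The median change of the 8 on the log2(TPM + 1) scale was 0.18, against -0.0044 over all genes tested, and the median absolute change was 0.31 against 0.27. The groups did not overlap for 6 of the 8, which held for 57.9% of all genes tested. In such bulk libraries, a change in every cell and a change in the share of cells that express a gene cannot be told apart.

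**Figure D1:**
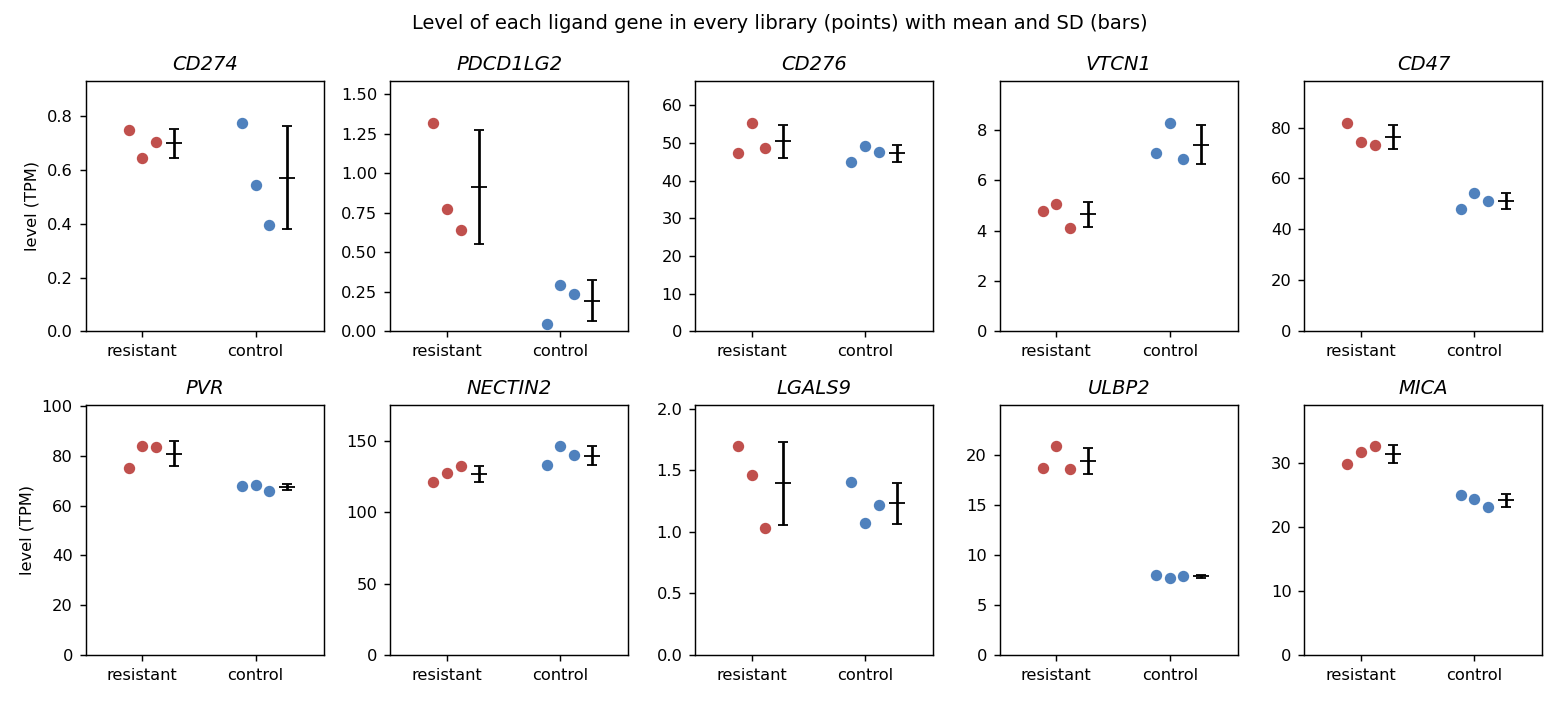
Level in TPM of each of the 10 genes in the 3 resistant (red) and 3 control (blue) libraries, with mean and SD beside the points; each panel has its own axis from 0. CD274 and PDCD1LG2 stay near or below 1 TPM, ULBP2, CD47, MICA and PVR lie higher in all resistant libraries, and VTCN1 lies lower in all of them.

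By level per gene length, the order in both groups was led by NECTIN2. In resistant libraries NECTIN2 averaged 127 ± 5.62 TPM (SD, n = 3, as for all means below), followed by PVR at 80.8 ± 4.95 TPM and CD47 at 76.5 ± 4.76 TPM, which do not differ beyond their spread. In control libraries NECTIN2 averaged 140 ± 6.67 TPM and PVR 67.5 ± 1.33 TPM, and CD47 at 51.1 ± 3.08 TPM stood close to CD276 at 47.3 ± 2.22 TPM. Of the summed TPM of the 10 genes, NECTIN2 made up 32.3% in resistant and 40.3% in control libraries, and CD47 made up 19.5% and 14.7%. By mean, MICA, ULBP2, VTCN1 and LGALS9 followed in this order in both groups, although in control libraries ULBP2 and VTCN1 do not differ beyond their spread, and the PD-1 ligands came last.

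The PD-1 ligands had the lowest levels of the 10 genes by mean, with LGALS9 just above them. CD274 (ENSG00000120217, chromosome 9, 5450503 to 5470566 on GRCh38) was at 0.751, 0.644 and 0.703 TPM in resistant libraries, against 0.777, 0.546 and 0.394 TPM in control libraries. The groups overlapped, and the values rest on an estimated 29, 24 and 28 reads in resistant and 29, 19 and 17 reads in control libraries. With no filter on low values the difference was 0.12 ± 0.14 on the log2(TPM + 1) scale (SE; 95% interval -0.22 to 0.46; adjusted p = 0.586 by limma), so these reads could not show a difference. PDCD1LG2 (ENSG00000197646, chromosome 9, 5510570 to 5571254) was at 1.32, 0.774 and 0.640 TPM in resistant libraries, against 0.0455, 0.293 and 0.236 TPM in control libraries, from an estimated 14.7 to 29.3 and 0.978 to 5.87 reads. The groups did not overlap, and the resistant library of replicate 1 was well above the other two. Without the filter PDCD1LG2 was called higher (log2 0.67 ± 0.18, adjusted p = 0.0404; 12.1% of 30799 genes were called higher in that fit), but of 6 such fits that each left out a library, only the one without resistant replicate 3 kept the call (adjusted p = 0.0498; range over the 6, 0.0498 to 0.114).

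Over the 6 libraries, the tested genes whose log2 values ran most like those of CD274 were TEX21P (Pearson's r 0.98), COMMD1 (0.98) and SLFNL1 (0.97), as a description of 6 points that share their groups and with few reads behind CD274. None of these 3 genes was called changed, apart from TEX21P without control replicate 1 (adjusted p = 0.0494).

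Of the 2 other B7 genes, VTCN1 fell and CD276 did not pass the test. VTCN1 (ENSG00000134258, chromosome 1, 117143587 to 117210960) was at 4.78, 5.07 and 4.09 TPM in resistant libraries, against 7.11, 8.30 and 6.85 TPM in control libraries. All resistant libraries lay below all control libraries, and VTCN1 fell by 0.58 ± 0.11 on the log2(TPM + 1) scale (adjusted p = 0.00319). CD276 (ENSG00000103855, chromosome 15, 73683966 to 73714518), the most abundant B7 gene here, was at 47.3, 55.4 and 48.6 TPM in resistant libraries, against 44.9, 49.3 and 47.6 TPM in control libraries. The groups overlapped and the difference did not pass (log2 0.09, 95% interval -0.07 to 0.25, adjusted p = 0.323). VTCN1 was thus at 0.0923 ± 0.00857 of the level of CD276 in resistant and 0.157 ± 0.0123 in control libraries; the ratio was not tested. Of 6 further genes of B7 and CD28-family ligands, 2 were tested: VSIR, which encodes the inhibitory protein VISTA, and the ICOS ligand gene ICOSLG. In this limma fit 0 of them were called, against 48.6% of all genes tested. VSIR was at 25.2 ± 2.46 TPM in resistant and 24.3 ± 1.19 TPM in control libraries.

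CD47 rose to 1.50 times its control mean. CD47 (ENSG00000196776, chromosome 3, 108043094 to 108091862) was at 81.9, 74.3 and 73.2 TPM in resistant libraries, against 48.1, 54.3 and 51.0 TPM in control libraries. Every resistant library lay above every control library (log2 0.57 ± 0.06, adjusted p = 2.88e-04). Its neighbours rose too: of 8 tested genes that start within 2 Mb, 6 were called higher and 0 lower, with a median log2 change of 0.80. The shares over all genes tested were 24.0% higher and 24.7% lower. The nearest of them by start, IFT57, a component of cilia chosen for its position, was at 60.1 TPM in resistant and 31.4 TPM in control libraries (log2 0.92). The part of this region in the rise of CD47 was not tested. A list of genes that bind or modify CD47, together with lactate transporters and their chaperone, held 6 tested genes. Of these, 3 rose and 0 fell, against the same 24.0% and 24.7% of all genes tested. THBS1, a secreted CD47 ligand, was at 23.3 ± 1.38 TPM in resistant and 15.3 ± 0.688 TPM in control libraries (log2 0.57). QPCTL, the enzyme that modifies the SIRPα-binding end of CD47, was at 49.6 ± 0.482 TPM and 38.5 ± 2.36 TPM (log2 0.36), and SLC16A3, a lactate exporter, at 63.9 ± 3.44 TPM and 49.4 ± 1.21 TPM (log2 0.36). SIRPA itself, known from myeloid cells, was at 45.6, 49.6 and 44.6 TPM in resistant libraries, against 20.0, 19.5 and 19.5 TPM in control libraries, and rose by 1.20 ± 0.05 (adjusted p = 6.31e-06).

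PVR rose, and NECTIN2 did not pass the test. PVR (ENSG00000073008, chromosome 19, 44643798 to 44663583) was at 75.1, 83.8 and 83.6 TPM in resistant libraries, against 68.1, 68.4 and 66.0 TPM in control libraries (log2 0.26 ± 0.05, adjusted p = 0.00588). NECTIN2 (ENSG00000130202, chromosome 19, 44846175 to 44889228) was at 121, 127 and 132 TPM in resistant libraries, against 133, 146 and 140 TPM in control libraries. The NECTIN2 groups were separated by less than 1 TPM, and the difference did not pass (log2 -0.14 ± 0.05, 95% interval -0.26 to -0.015, adjusted p = 0.0630), although it passed without control replicate 1 (adjusted p = 0.0325). The sum of the 2 genes differed by less than its spread, 208 ± 10.3 TPM in resistant and 207 ± 6.88 TPM in control libraries, while the ratio of PVR to NECTIN2 was 0.620, 0.658 and 0.631 in resistant and 0.512, 0.468 and 0.470 in control libraries. The ratios did not overlap between the groups and were not tested. Of 5 other nectin and nectin-like genes, 3 were tested, of which 2 rose and 1 fell. Among all genes tested, 24.0% were called higher and 24.7% lower. NECTIN1, an adhesion molecule that binds other nectins, was at 77.2, 84.8 and 82.7 TPM in resistant libraries, against 12.8, 12.8 and 15.1 TPM in control libraries, and its rise of 2.51 ± 0.07 (adjusted p = 1.19e-06) exceeded that of any of the 10 ligand genes. NECTIN4, a target of antibody therapy, was at 44.4 ± 0.959 TPM in resistant and 35.1 ± 2.10 TPM in control libraries (log2 0.33), and CADM4 fell to 40.2 ± 2.62 TPM, against 50.3 ± 2.43 TPM in control libraries. Among receptors of checkpoint ligands, PDCD1, TIGIT, CD226, CD96, HAVCR2, BTLA, CTLA4, KLRK1 and KLRC1 were under 1 TPM in all 6 libraries. Of the 4 receptors tested, 2 rose, SIRPA and, named after its values were seen, its relative SIRPG. SIRPG passed the filter only through the resistant libraries (2.73 ± 0.417 TPM, against 0.113 ± 0.114 TPM in control libraries), so its call adds nothing to the count.

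LGALS9 stayed low and its values are uncertain. LGALS9 (ENSG00000168961, chromosome 17, 27629798 to 27649560) was at 1.69, 1.47 and 1.03 TPM in resistant libraries, against 1.41, 1.07 and 1.22 TPM in control libraries. The groups overlapped (log2 0.10, 95% interval -0.29 to 0.48, adjusted p = 0.666). Near-identical copies were listed at other levels: LGALS9B was at 8.80 ± 1.51 TPM in resistant and 16.7 ± 1.92 TPM in control libraries (log2 -0.86, adjusted p = 0.00123), and LGALS9C at 0.662 ± 0.320 TPM and 1.64 ± 0.381 TPM, a difference that was called, but not when low genes were kept (adjusted p = 0.0503) or without resistant replicate 1 or 3 or control replicate 2 or 3 (up to 0.0831). LGALS9C passed the filter only through the control libraries. These relatives were chosen for their sequence after the values were seen, and how the authors' counting shared reads between them is not known.

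ULBP2 rose more than any other of the 8 tested genes, and MICA, another NKG2D ligand gene, rose by a smaller amount. ULBP2 (ENSG00000131015, chromosome 6, 149942000 to 149949235) was at 18.7, 20.8 and 18.6 TPM in resistant libraries, against 7.99, 7.70 and 7.84 TPM in control libraries. The lowest resistant library was more than 10 TPM above the highest control library, the mean was 2.47 times as high, and ULBP2 rose by 1.20 ± 0.07 (adjusted p = 1.43e-05), a larger absolute change than that of 96.2% of genes tested. MICA (ENSG00000204520, chromosome 6, 31399784 to 31415315) was at 29.8, 31.6 and 32.5 TPM in resistant libraries, against 25.0, 24.4 and 23.0 TPM in control libraries. Its groups did not overlap either, with a smaller rise of 0.36 ± 0.06 (adjusted p = 0.00133). ULBP2 was at 0.619 ± 0.0440 of the MICA level in resistant and 0.325 ± 0.0131 in control libraries.

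The other tested genes of the NKG2D ligand family rose as well. Of the 6 other family genes, 5 were tested, and these 5 rose, against 24.0% of all genes tested. MICB was at 40.8, 40.5 and 39.8 TPM in resistant libraries, against 15.6, 18.3 and 17.6 TPM in control libraries, and rose by 1.19 ± 0.06 (adjusted p = 1.22e-05); it overtook MICA, which was the more abundant of the pair in all control libraries. ULBP3 was at 10.2 ± 0.555 TPM in resistant and 6.21 ± 0.947 TPM in control libraries (log2 0.64). ULBP1, RAET1G and RAET1L, named after their values were seen, changed by 0.88, 0.83 and 1.54 on the log2 scale. RAET1L passed the filter only through the resistant libraries (3.29 ± 0.381 TPM, against 0.490 ± 0.259 TPM in control libraries), so its call adds nothing to the count. RAET1E was below the filter, at 0.275 to 0.496 TPM in resistant and 0 to 0.159 TPM in control libraries. Summed over the 8 family genes, the level was 110, 113 and 112 TPM in resistant libraries, against 57.6, 59.6 and 59.3 TPM in control libraries. These genes are close relatives in sequence, so reads may have been shared between them.

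**Figure D2:**
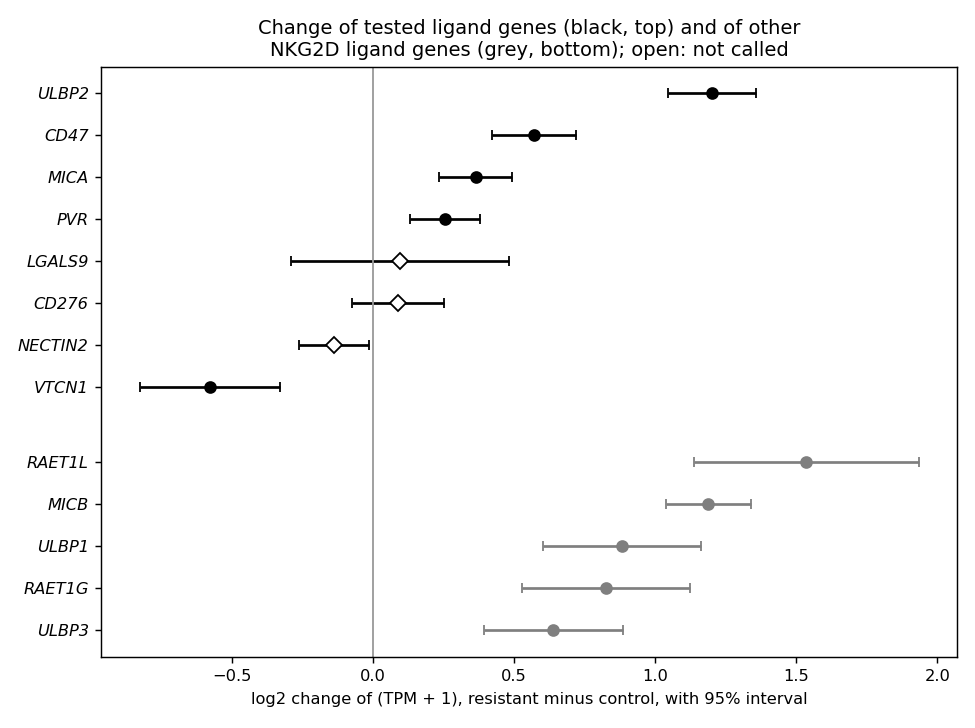
Change of the 8 tested ligand genes (black) and of the 5 other tested NKG2D ligand genes (grey), as log2 of (TPM + 1) in resistant minus control cells with 95% intervals; open symbols did not pass the test. ULBP2 and MICB lie near 1.20, VTCN1 is the single called decrease, and the intervals of CD276 and LGALS9 span 0.

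Genes that process NKG2D ligands moved in both directions. Of 8 shedding enzymes and chaperones, 7 were tested, of which 2 rose and 3 fell, against 24.0% and 24.7% of all genes tested. ADAM10, a sheddase of MICA, fell to 21.6, 17.6 and 18.3 TPM in resistant libraries, against 37.7, 48.2 and 41.3 TPM in control libraries (log2 -1.10 ± 0.11, adjusted p = 1.58e-04). ADAM17, the other main sheddase, was at 51.6 ± 1.88 TPM in resistant and 39.7 ± 2.43 TPM in control libraries (log2 0.37), and HSPA5, an endoplasmic reticulum chaperone, at 390 ± 16.4 TPM and 288 ± 11.2 TPM (log2 0.44). MMP14 and MMP9, named after their values were seen, changed by -1.10 and -0.67; MMP9 was not called without resistant replicate 2 or control replicate 3 (adjusted p = 0.0516 and 0.0565).

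The genomic surroundings of the ligand genes differed. Around CD274 and PDCD1LG2 on 9p24, 12 of 20 tested genes within 2 Mb fell and 0 rose, with a median log2 change of -0.46. Among all genes tested, 24.7% were called lower and 24.0% higher. Of the 17 genes listed for this segment, 11 were tested, of which 10 fell. These 11 are among the 20, and the list was chosen with earlier results known, so its count adds no further support. PLGRKT, on one side of the pair, was at 15.9 ± 1.96 TPM in resistant and 19.1 ± 0.113 TPM in control libraries (log2 -0.25), and RIC1, on the other side, at 3.76 ± 0.318 TPM and 5.94 ± 0.133 TPM (log2 -0.55). The largest decrease was that of ERMP1, an endoplasmic reticulum peptidase, at 28.6 ± 1.64 TPM and 85.7 ± 5.35 TPM (log2 -1.55). SLC1A1, CDC37L1, AK3, RCL1, KIAA2026, RANBP6 and UHRF2 changed by -0.40 to -0.87, and of these CDC37L1 was not called without control replicate 2 (adjusted p = 0.0609). The PLGRKT call was lost without any single library other than resistant replicate 2 (adjusted p up to 0.111), when low genes were kept (0.0925), with median-ratio scaling (0.0513) and with no trend and no robust estimation (0.0638). JAK2, the kinase that relays interferon signals, was at 0.975 ± 0.0826 TPM in resistant and 1.32 ± 0.154 TPM in control libraries and did not pass the test (adjusted p = 0.232), although it did with no trend and no robust estimation (0.0380). Within this segment PDCD1LG2 thus ran against its neighbours, on few reads.

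The chromosome 6 ligands did not follow their surroundings alike. For the counts in this paragraph, the shares over all genes tested were 24.0% higher and 24.7% lower. Leaving out other NKG2D ligands, 3 of 26 tested genes within 2 Mb of ULBP2 rose and 7 fell. Their median was -0.09, against 1.20 for ULBP2. The ligand genes left out, ULBP1, ULBP3, RAET1G and RAET1L, lie beside ULBP2, between 149916878 and 150069095, and were called higher. With them, 7 of 30 rose and 7 fell, with a median of -0.05. Near MICA, with MICB left out, 51 of 135 rose and 11 fell, with a median of 0.13 against 0.36. Around VTCN1, 12 of 26 tested genes fell and 4 rose (median -0.35). The neighbours of PVR and NECTIN2 had a median of 0.16, with 35 of 89 and 37 of 95 called higher, and NECTIN2 was below it. The part of these regions in the members' changes was not tested.

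**Figure D3:**
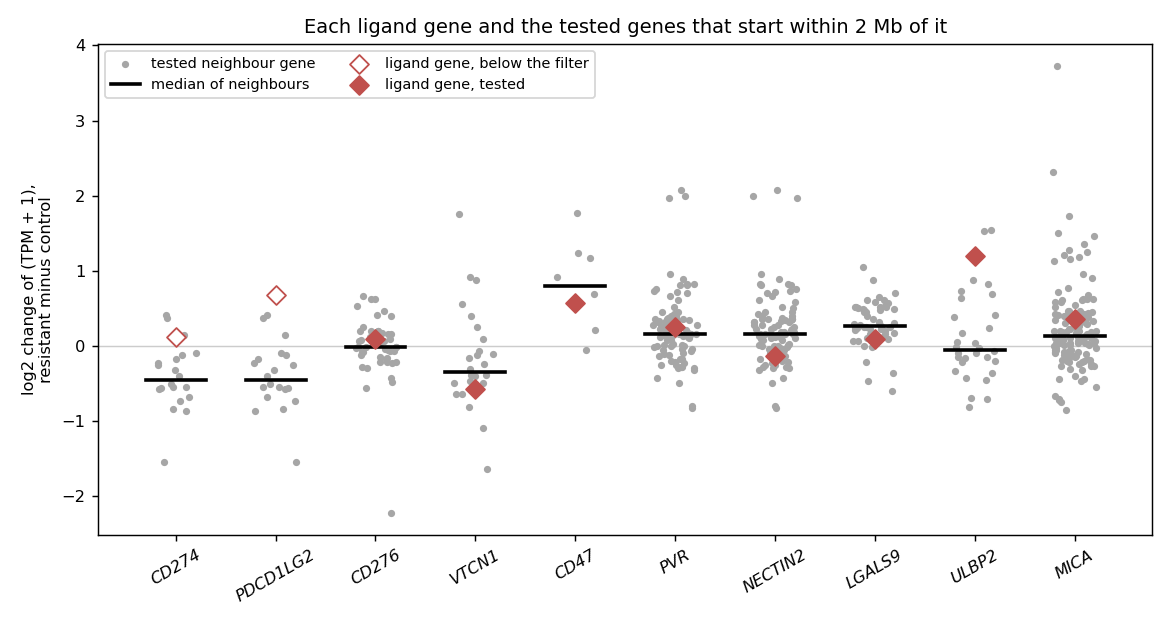
Change of each ligand gene (red diamonds; open where below the filter) beside the tested genes that start within 2 Mb of it (grey points, with their median as a bar), as log2 of (TPM + 1) in resistant minus control cells. The neighbours of CD47 have a median of 0.80 and those of CD274 and PDCD1LG2 of -0.46. ULBP2 at 1.20 stands above the median of its neighbours, -0.05, although 2 of them have an absolute change at least as large.

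Genes of the pathways known to induce PD-L1 were more often called higher than lower. Of 19 tested genes of interferon and NF-kB signalling, 11 rose, 3 fell and 5 did not pass, with a median of 0.25; over all genes tested 24.0% were called higher and 24.7% lower, and the median was -0.0044. SOCS1, a feedback inhibitor of JAK kinases, was at 6.10 ± 0.734 TPM in resistant and 1.67 ± 0.570 TPM in control libraries (log2 1.43). NFKB2, RELB and IRF9, an NF-kB precursor, its partner subunit and a factor of the interferon response, changed by 1.0, 0.66 and 0.56. IRF1, named after its values were seen, was at 5.16 ± 0.185 TPM in resistant and 4.46 ± 0.400 TPM in control libraries and did not pass (adjusted p = 0.152). The members that fell, also named after their values were seen, were JAK1 (log2 -0.42), NFKB1 (-0.34) and RELA (-0.20).

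Most genes that control the PD-L1 protein did not pass the test. Of 17 tested, 1 rose, 4 fell and 12 did not pass, while 24.0% of all genes tested were called higher and 24.7% lower. The count that fell is thus near the background. CMTM6 and CMTM4, which keep PD-L1 at the surface, were at 62.8 ± 2.89 TPM in resistant and 74.5 ± 5.61 TPM in control libraries (log2 -0.24) and at 41.5 ± 1.31 TPM and 49.6 ± 2.09 TPM (log2 -0.25). HIP1R, which sends PD-L1 to lysosomes, fell by 0.37 to 25.6 ± 1.32 TPM, against 33.4 ± 0.844 TPM in control libraries, and USP22, named after its values were seen, fell by 0.20. TRIM21, a ubiquitin ligase, was called higher (log2 0.29). The call of CMTM6 was lost without resistant replicate 2 or 3 or control replicate 3 (adjusted p up to 0.0642). That of TRIM21 was lost without resistant replicate 1 or 2 or control replicate 1 or 2 (adjusted p up to 0.0907), and also when low genes were kept (adjusted p = 0.0817) and with no trend and no robust estimation (0.0576).

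Other immune regulators at the surface or in the medium went both ways. For the counts that follow, the shares over all genes tested were 24.0% higher and 24.7% lower. A list of TNF superfamily ligands and the BTLA axis, which also held the receptor CD40, had 4 tested genes, of which 2 rose and 1 fell. CD40 was at 55.1 ± 1.28 TPM in resistant and 35.5 ± 2.15 TPM in control libraries (log2 0.62). TNFRSF14, the ligand of BTLA, named after its values were seen, changed by 0.82. TNFSF15 fell by 1.49 to 5.50 ± 0.452 TPM, against 17.4 ± 2.41 TPM in control libraries. Of 6 tested butyrophilins, 3 rose, BTN2A2 (log2 0.48), BTN3A1 (0.29) and BTNL9 (0.22); the call of BTNL9 was lost without any single library other than control replicate 1 (adjusted p up to 0.0930). Of 10 tested soluble, metabolic and adhesion checkpoints, 6 rose and 3 fell. CEACAM1, a cell adhesion molecule, was at 10.5 ± 0.588 TPM in resistant and 4.48 ± 0.134 TPM in control libraries (log2 1.06), and LGALS1, a secreted galectin, at 946 ± 62.6 TPM and 582 ± 31.6 TPM (log2 0.70). NT5E (CD73), which makes immunosuppressive adenosine, fell to 36.9 ± 2.41 TPM, against 59.6 ± 1.36 TPM in control libraries, and HMGB1, an alarm signal released by dying cells, fell to 120 ± 5.36 TPM, against 167 ± 11.3 TPM.

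**Figure D4:**
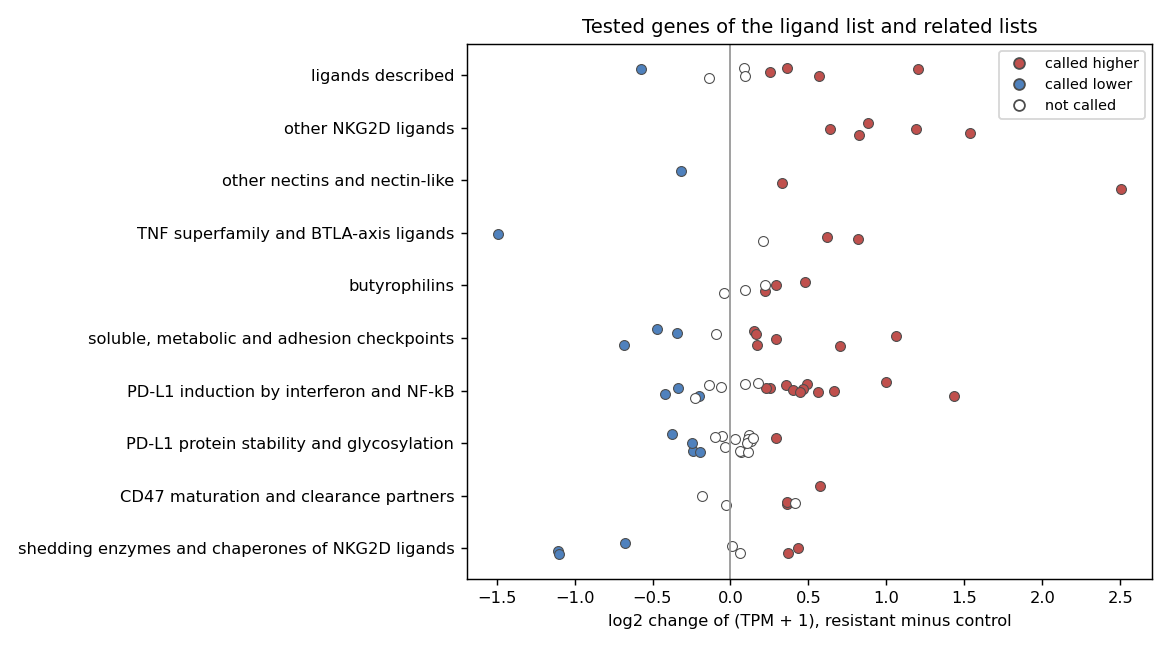
Log2 change of (TPM + 1), resistant minus control, of the tested genes of the 10 ligands and of 9 related lists; red and blue points passed the test and open points did not. The tested NKG2D ligand genes lie to the right of 0, NECTIN1 lies farthest right at 2.51, and the genes of PD-L1 protein control cluster near 0.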

How the data were processed

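Poly(A) RNA of 3 resistant and 3 control libraries was sequenced from a stranded kit, per the labels' protocols. The authors deposited 1 table of TPM, with a column per library and 51537 genes; each column sums to 1000000. HISAT2 is the tool named per the submitters' processing notes, without its role; version, read counter, genome build and annotation are not stated in the labels used here. TPM keeps no depth, so reads were estimated as TPM times the union exon length in GENCODE 29 over the smallest step of the library (67.2% to 67.9% of values above 0 came out whole within 0.01 read). Coordinates are those of GENCODE 29 on GRCh38, and the authors' build may differ.

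The 16077 genes that reached 1 TPM in 3 or more libraries were tested. Group differences in log2(TPM + 1) were fitted with limma 3.58.1 in R 4.3.3, using trended and robust empirical Bayes variances (with statmod 1.5.0); tests were two-sided, with Benjamini-Hochberg adjustment over the tested genes and calls at 0.05. The fit was also run on simulated data, and the outcome, not reported here, is not used as support for the calls. Fold changes on this scale understate those of low genes.

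The members and lists were chosen with earlier results of these data known. Besides the 10 members, the rule named up to 4 called genes per list that averaged 5 TPM or more in their higher group, largest change first, or the most abundant gene where fewer than 2 were called, and every tested gene of the 9p24 list. The alternatives were a pseudocount of 0.1, no filter, a filter at 5 TPM, median-ratio scaling, no trend and no robust estimation, the replicate number as a block, and leaving out each library. The labels give no batch. Replicates differed beyond counting noise (chi-square per gene of 4.05 to 11.9 on rebuilt reads), so no pair was taken for 1 library deposited more than once; this does not show that the replicates were separate cultures. Promoters came from RefSeq (GRCh38.p14), which held 9 of the 10 members and not PDCD1LG2, and were aligned with biopython 1.88.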

Additional observations from a re-analysis of the deposited data

How the results depend on the processing

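The 4 members called higher and the 1 called lower had the same counts under a pseudocount of 0.1, a filter at 5 TPM, median-ratio scaling and a fit with no trend and no robust estimation; without a filter on low values 5 were called higher, PDCD1LG2 being added. Leaving out each library in turn gave 4 higher in every fit and 1 to 2 lower, NECTIN2 being added without control replicate 1. With the replicate block, 2 members were called lower (NECTIN2, adjusted p = 0.0397), and over all genes 3433 were called higher and 3423 lower, against 3852 and 3963 without it. The numbers share no stated day or culture: the correlations of deviations of same-numbered libraries were -0.058, -0.0017 and -0.016, and 0 of 6 libraries correlated best with their own number. Of 109 values of members under other settings, 105 kept the presence or absence of a main call, 4 gained a call and 0 reversed. CD274 and PDCD1LG2, with 7 values each, had no main test, so their values without a call were counted among the 105. Fits without the filter that also left out a library were chosen after seeing the data. Of the other named genes, 0 reversed; calls lost under the block were those of CMTM6 (adjusted p = 0.0502), CDC37L1 (0.0533), PLGRKT (0.0669), TRIM21 (0.0811) and BTNL9 (0.0866); the cause was not tested. Depth limits CD274 and PDCD1LG2, with at most 29.3 estimated reads a library.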
